A study of Mus musculus with 4 samples.

Results

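The azurophil granule genes described here are Elane, Mpo, Prtn3, Ctsg, Ms4a3 and Ctsc, which were listed by name and make up 6 of the 31053 genes of the deposited mouse count matrices. Single cells were profiled on the Chromium system (10x Genomics), which counts RNA molecules by unique molecular identifiers (UMIs). Every fetus was labelled Cyp27a1-/-, and the libraries differed in the mother and the age. The mother was Cyp27a1-/- (null mother) or Cyp27a1+/- (heterozygous mother), at the embryonic ages E18.5 or E14.5 (days after conception), with 1 library for each of the 4 combinations. The tissue was labelled lung, and the labels do not give the number of fetuses in a library. Cyp27a1 encodes sterol 27-hydroxylase, a mitochondrial enzyme that oxidises cholesterol.

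Azurophil granules are the first granules that a developing neutrophil makes, and their cargo genes are switched on at the promyelocyte stage and off again before the specific granules form. Elane, Prtn3 and Ctsg encode serine proteases (neutrophil elastase, proteinase 3 and cathepsin G), and Mpo encodes myeloperoxidase, the haem enzyme that makes hypochlorous acid from hydrogen peroxide and chloride. Ctsc encodes cathepsin C, a lysosomal protease that cuts a short propeptide from the serine proteases and so activates them. Ms4a3 encodes a membrane protein of granulocyte and monocyte progenitors.

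The 2 E18.5 libraries held 16517 cells (null mother) and 17034 cells (heterozygous mother), with medians of 4848 and 3782.5 UMIs per cell. The E14.5 libraries held 4843 and 4957 cells, with medians of 6387 and 3697. The E18.5 libraries lacked the defining genes of lung: Nkx2-1, the lung epithelial transcription factor, had 1 and 4 UMIs in all, against 2804 and 1935 at E14.5. They held hepatocyte genes instead, with Alb at 8344 and 2905 CPM, that is, UMIs out of each 1000000 counted in that library or class, so that their cells are those of a blood-forming, liver-like tissue whatever the label. Cyp27a1 RNA stood at 37.3 and 38.5 CPM at E18.5 and 19.7 and 18.7 at E14.5, which checks no genotype because the deleted stretch was not given in the sources used here. The name of the E18.5 heterozygous-mother library carries a WT tag, although its fetal genotype was labelled Cyp27a1-/-. Nearly all of its cells with sex-linked UMIs were male, while the null-mother library mixed male and female cells. Any pair of libraries shared 93 to 164 cell barcodes. With 1 library in each group there is no replicate check, no p-value is given, and a difference between mothers is a difference between these libraries. All intervals are exact 95% intervals (Poisson for levels, conditional binomial for folds, Clopper-Pearson for shares) and cover counting error only.

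The gene starts were placed on GRCm38 (mm10) as follows. Elane lies at chr10:79886247-79888215 on the plus strand, 3072 bases from Prtn3 at chr10:79874476-79883174 on the same strand, so that these protease genes are neighbours. Mpo lies at chr11:87793581-87804413 (plus), Ctsg at chr14:56099881-56102574 (minus), Ms4a3 at chr19:11629496-11640851 (minus) and Ctsc at chr7:88278085-88310888 (plus). Promoter sequence from RefSeq (GRCm38.p6) is shown for the 4 genes of the granule's enzymes, since their RNA lay mostly in the same cells and PU.1, a myeloid transcription factor encoded by Spi1, is known to act on such promoters. The letters GAGGAAG, one form of the PU.1 motif, are in capitals. Each sequence runs 5′ to 3′ on the gene's strand, from up to 250 bases before the RefSeq start to the last base before an annotated exon.
Elane (chr10:79886062-79886246, plus): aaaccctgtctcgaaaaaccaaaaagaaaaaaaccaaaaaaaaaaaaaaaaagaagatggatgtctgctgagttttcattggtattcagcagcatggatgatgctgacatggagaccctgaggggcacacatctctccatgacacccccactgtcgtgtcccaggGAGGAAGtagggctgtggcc
Prtn3 (chr10:79879417-79879613, plus): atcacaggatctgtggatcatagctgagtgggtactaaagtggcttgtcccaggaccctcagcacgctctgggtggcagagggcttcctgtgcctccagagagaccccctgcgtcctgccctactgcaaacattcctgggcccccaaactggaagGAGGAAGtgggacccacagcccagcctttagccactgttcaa
Mpo (chr11:87793534-87793580, plus): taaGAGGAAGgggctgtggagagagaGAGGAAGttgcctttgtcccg
Ctsg (chr14:56102575-56102824, minus): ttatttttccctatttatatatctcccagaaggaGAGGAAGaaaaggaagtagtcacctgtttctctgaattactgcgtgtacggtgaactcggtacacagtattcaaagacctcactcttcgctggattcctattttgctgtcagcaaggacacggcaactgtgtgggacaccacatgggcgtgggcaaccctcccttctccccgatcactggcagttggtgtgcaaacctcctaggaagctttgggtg
The Prtn3 window lies inside the annotated span of the gene, whose longer transcripts start upstream. The letters began at -85 from the RefSeq start in Elane, at -95 in Prtn3, at -247 and at -224 in Mpo and at -216 in Ctsg. Ctsc held them 2 times on the opposite strand, and the window of Ms4a3 held none. Over both strands, 3469 of 32536 RefSeq promoter windows of 250 bases (10.7%) held the letters. No match in the 6 windows overlapped a match to the other motifs searched, which were TTNNGNAA (C/EBP, in 36.8% of windows), TGTGGT (RUNX, 13.96%), AACNGNC (MYB, 27.6%) and TATAAA (12.3%). A match is a run of letters and no measured binding.

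The RNA of 5 of the 6 genes was concentrated in a single class of cells. Cells were clustered with the 6 genes left out and classes were named from marker lists that hold none of them, so each class name stands for cells that are like that type. The early neutrophil precursor class was 1 cluster in which 12 of its 12 markers were enriched, among them Gfi1, Fcnb and Cebpe. It held 1007 cells (6.10%) of the null-mother library and 601 cells (3.53%) of the heterozygous-mother library at E18.5. This class contained 73.8% and 70.1% of all Elane, Mpo, Prtn3, Ctsg and Ms4a3 UMIs, against 10.6% and 7.27% of all UMIs. Monocytes held 8.85% and 11.4% of the UMIs of the 5 genes, blood progenitors 2.66% and 3.97%, and precursors with specific granules 2.27% and 3.80%. Clusters left unnamed, for doublets, mitochondrial content or unclear markers, held 6.18% and 7.24%. Ctsc followed another pattern, with 47.0% and 59.3% of its UMIs in monocytes, 32.0% and 16.7% in macrophages and only 4.27% and 4.16% in early precursors.

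Elane, the elastase gene, stood at 10683 CPM (interval 10626 to 10741) in early precursors of the null-mother library and at 8928 (8859 to 8998) in those of the heterozygous-mother library. An early precursor held a median of 123 Elane UMIs (10th to 90th percentile 31 to 242) with a null mother and 104 (38 to 176) with a heterozygous mother. The range with a heterozygous mother thus lay inside the range with a null mother, which reached higher. These counts are not scaled by depth. Monocytes were next in both libraries, at 1813 and 1444 CPM. Macrophages (367 and 249), in which a few cells held nearly all of it, blood progenitors (309 and 246) and specific-granule precursors (264 and 245) were lower. A pair of small classes differed widely between the libraries: T, NK or innate lymphoid cells had 722 and 2.53 CPM (135 and 94 cells) and basophils or mast cells 327 and 18.6. In the null-mother library 1 lymphoid cell held 281 of the 515 Elane UMIs of its class. The intervals of progenitors (229 to 264) and specific-granule precursors (237 to 253) overlapped in the heterozygous-mother library.

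Prtn3, the proteinase 3 gene, reached 12895 CPM in early precursors with a null mother and 12115 with a heterozygous mother. A median early precursor held 152 and 133 Prtn3 UMIs. Monocytes followed at 3443 and 2698 CPM, then blood progenitors at 1699 and 1567. Specific-granule precursors had 489 and 421. With a null mother, basophils or mast cells (937, against 165 with a heterozygous mother), T, NK or innate lymphoid cells (824, against 50.6) and macrophages (515, against 302) stood above them. Of the 6 genes, only Prtn3 had the same order over early precursors, monocytes, progenitors and specific-granule precursors in both libraries with no overlapping intervals. It was found in 70.9% and 72.4% of blood progenitors, while Elane was found in 23.8% and 18.7% of them.

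Ctsg, the cathepsin G gene, stood at 3804 and 2762 CPM in early precursors, with a median of 38 and 29 UMIs per cell. Its second class was that of basophils or mast cells, at 1461 and 1161 CPM (68 and 97 cells), followed by monocytes at 584 and 423 and progenitors at 545 and 430. The intervals of these last classes overlapped in both libraries. In specific-granule precursors Ctsg was down to 19.97 and 9.98 CPM. Erythroid cells, a class that should lack it, had lower levels of 10.1 and 4.49. Mouse Ctsg lies on chromosome 14 near the mast cell protease genes, with Mcpt8 at 14607 bases.

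Mpo, the myeloperoxidase gene, had 6456 CPM in early precursors with a null mother and 4338 with a heterozygous mother. The median cell held 80 and 52 Mpo UMIs. Basophils or mast cells, monocytes and blood progenitors came next and their order differed between the libraries: 2027, 1643 and 1572 CPM with a null mother, against 1092, 1082 and 1319 with a heterozygous mother. Mpo was at 61.7 and 35.4 in specific-granule precursors, where erythroid cells had 18.3 and 7.11.

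Ms4a3, the membrane protein gene, was the most even of the 5 between the libraries in early precursors, with 1620 and 1614 CPM and medians of 18 and 17 UMIs per cell. Basophils or mast cells (165 and 142), specific-granule precursors (149 and 137) and monocytes (146 and 103) followed far below. The intervals of basophils or mast cells and specific-granule precursors overlapped in both libraries.

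Ctsc, the gene of the activating protease, was highest in Kupffer-like macrophages, at 681 CPM (657 to 705) with a null mother and 813 (764 to 864) with a heterozygous mother. Monocytes had 642 (623 to 661) and 619 (600 to 640), and the 2 classes overlapped in their intervals only with a null mother. Dendritic cells followed at 223 and 206. Early precursors held Ctsc at 32.6 and 36.5, a level near that of B cells (34.7 and 37.6), and 26.1% and 28.3% of them had a Ctsc UMI. The cells with the most protease RNA were thus low in the RNA of the enzyme that activates the proteases. Erythroid cells had 3.48 and 2.95, so the Ctsc of early precursors was above the level in cells that should lack it.

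**Figure D1:**
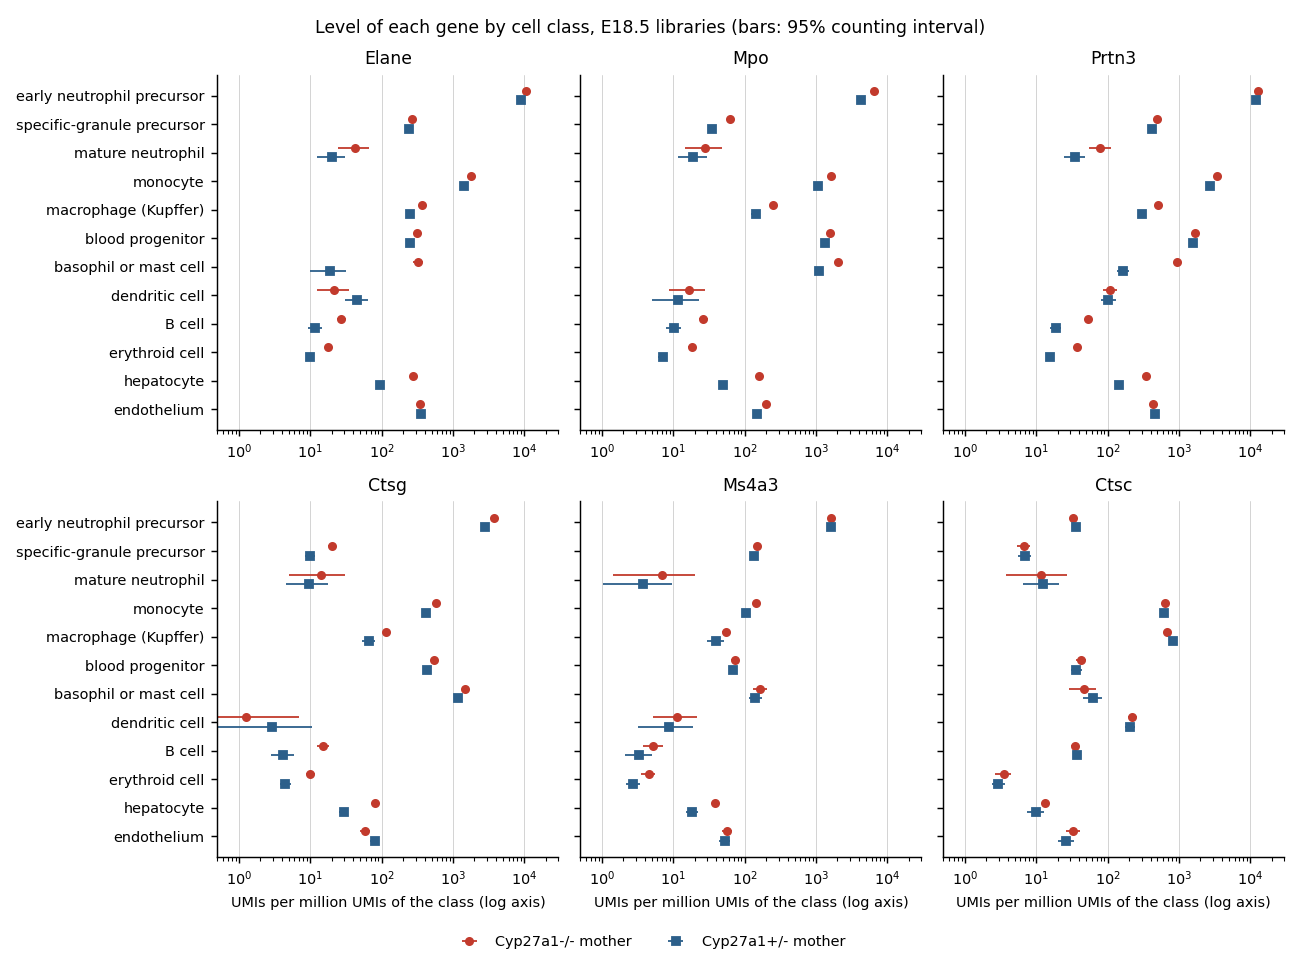
Level of each of the 6 genes in 12 cell classes of the E18.5 libraries, as CPM UMIs of the class on a log axis; circles are the null-mother library, squares the heterozygous-mother library, bars the 95% counting interval (2 Ctsg bars in dendritic cells run past the left edge). Elane, Mpo, Prtn3, Ctsg and Ms4a3 are highest in early neutrophil precursors, while Ctsc is highest in macrophages and monocytes.

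Almost every early precursor carried the whole set. All 5 genes were detected in 929 of 1007 cells (92.3%, interval 90.4 to 93.8) with a null mother and in 557 of 601 cells (92.7%, 90.3 to 94.6) with a heterozygous mother. After thinning each cell to 1000 UMIs, which left out 21 and 4 shallower cells, the shares were 60.0% and 57.5%. The 5 genes together made up a median of 3.65% and 3.00% of a cell's UMIs. Every early precursor had at least 1 UMI of the 5 genes, at median depths of 12570 and 11811 UMIs, whereas 34.5% and 16.9% of erythroid cells did at median depths of 3467 and 3378. In monocytes the 5 genes were found together in 17.9% and 14.1% of cells, and 82.7% and 74.3% had at least 1 UMI of them. Mature neutrophils (197 and 489 cells) had a UMI of the 5 genes in 29.9% and 12.7% of cells at median depths of 1899 and 2006, lower than the depths of erythroid cells, so these shares are not compared. By level, outside cells with 10 or more such UMIs, the 5 genes were at 169.7 and 68.5 CPM in mature neutrophils and at 81.5 and 38.8 in erythroid cells. Their UMIs were few, with 18 and 21 for Elane and 3 and 4 for Ms4a3.

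The genes differed in how far their levels fell between clusters of the neutrophil series. A finer clustering split the early precursors by Camp, a gene of the later specific granules. Cells with low Camp (2801 and 2569 CPM, 591 and 340 cells) had Elane at 12825 and 10541, Prtn3 at 15488 and 14855, Mpo at 7936 and 5282, Ctsg at 5115 and 3902 and Ms4a3 at 2012 and 2037. Cells with high Camp (28983 and 26666, 388 and 244 cells) had Elane at 6728 and 6497, Prtn3 at 7632 and 7599, Mpo at 2553 and 1976, Ctsg at 891 and 603 and Ms4a3 at 1012 and 1050. Ctsg thus stood lowest relative to its own level in the low-Camp cells, and Elane, Prtn3 and Ms4a3 kept more of theirs. In specific-granule precursors with the highest Fcnb, a ficolin gene of immature neutrophils, Elane was still at 307 and 301 and Ms4a3 at 221 and 223, while Ctsg was at 30.9 and 4.35. Where Fcnb was lowest, Elane was down to 47.3 and 23.4 and Ms4a3 to 38.7 and 18.7. The clusters were made without the 6 genes, but all other genes of these cells shaped them, so the order of the clusters is a description.

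**Figure D2:**
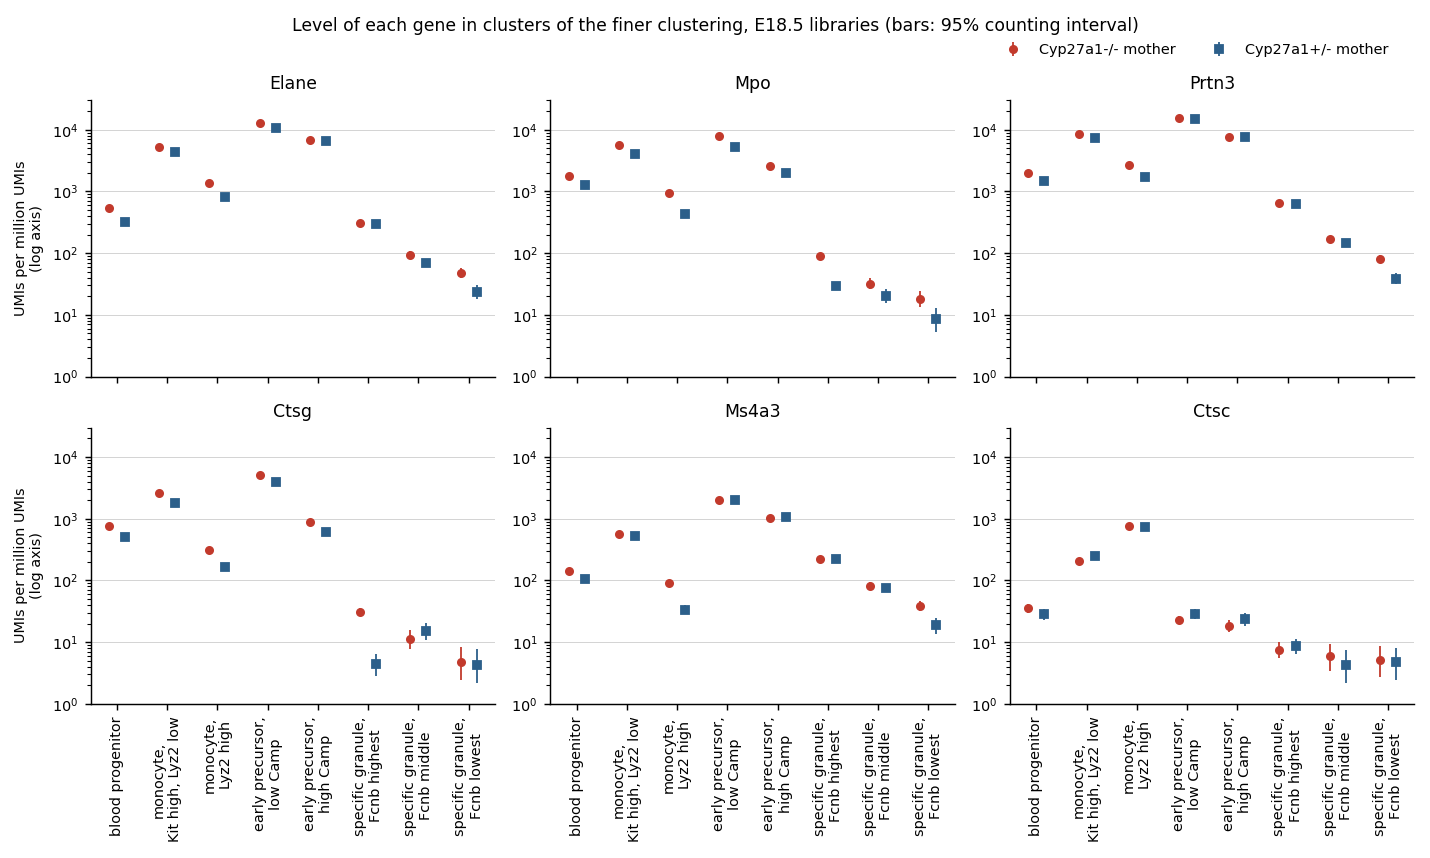
Level of each gene in 8 clusters of the finer E18.5 clustering, as CPM on a log axis, with the null-mother library as circles, the heterozygous-mother library as squares and 95% counting intervals as bars. Ctsg and Mpo drop between the low-Camp and the high-Camp early precursors more than Elane, Prtn3 and Ms4a3 do, and Ctsc peaks in monocytes.

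The monocyte class was mixed. One finer cluster with the monocyte markers (241 and 197 cells) carried Kit, a growth factor receptor gene of progenitors, at 33.9 and 44.7 CPM and Lyz2, a lysozyme gene of mature myeloid cells, at 941 and 1281. It had Elane at 5256 and 4335, Mpo at 5685 and 4047, Prtn3 at 8390 and 7344, Ctsg at 2574 and 1816 and Ctsc at 206 and 251. The other monocyte cluster (741 and 623 cells) had 7 and 5 Kit UMIs (1.39 and 1.197 CPM) and Lyz2 at 12314 and 12689. It had Elane at 1390 and 820, Mpo at 944 and 435, Prtn3 at 2687 and 1728, Ctsg at 315 and 168 and Ctsc at 763 and 726. The 5 genes were thus higher in the cluster with Kit and little Lyz2, and Ctsc ran the other way. Whether the cells of the cluster with Kit are monocytes or progenitors with monocyte markers was not tested. The levels given above for the monocyte class do not separate such cells.

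The make-up of the RNA differed between classes. UMI counts of different genes were not scaled by length, so the shares below compare classes for 1 gene at a time. Mpo made up 37.4% and 36.3% of the UMIs of the 5 genes in blood progenitors, 18.2% and 14.6% in early precursors and 6.27% and 4.17% in specific-granule precursors. Elane ran from 7.37% and 6.77% in progenitors to 30.1% and 30.003% in early precursors and 26.8% and 28.9% in specific-granule precursors. Ms4a3 was 1.74% and 1.91% in progenitors, 4.57% and 5.42% in early precursors and 15.1% and 16.1% in specific-granule precursors. The progenitors were therefore rich in Mpo and poor in Elane and Ms4a3, and both libraries showed the same order. Basophils or mast cells had a make-up of their own, with Mpo at 41.2% and 42.4%, Ctsg at 29.7% and 45.0% and Elane at 6.65% and 0.723%. Of the 163 Elane UMIs of that class with a null mother, 127 lay in 1 cell, which also held 275 of its 467 Prtn3 UMIs. Without the cell of each library with the most UMIs of the 5 genes, Elane was at 74.9 (52.4 to 104) and 19.2 (10.2 to 32.7) CPM, Mpo at 1896 and 1039, and Ctsg at 1270 and 1158.

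**Figure D3:**
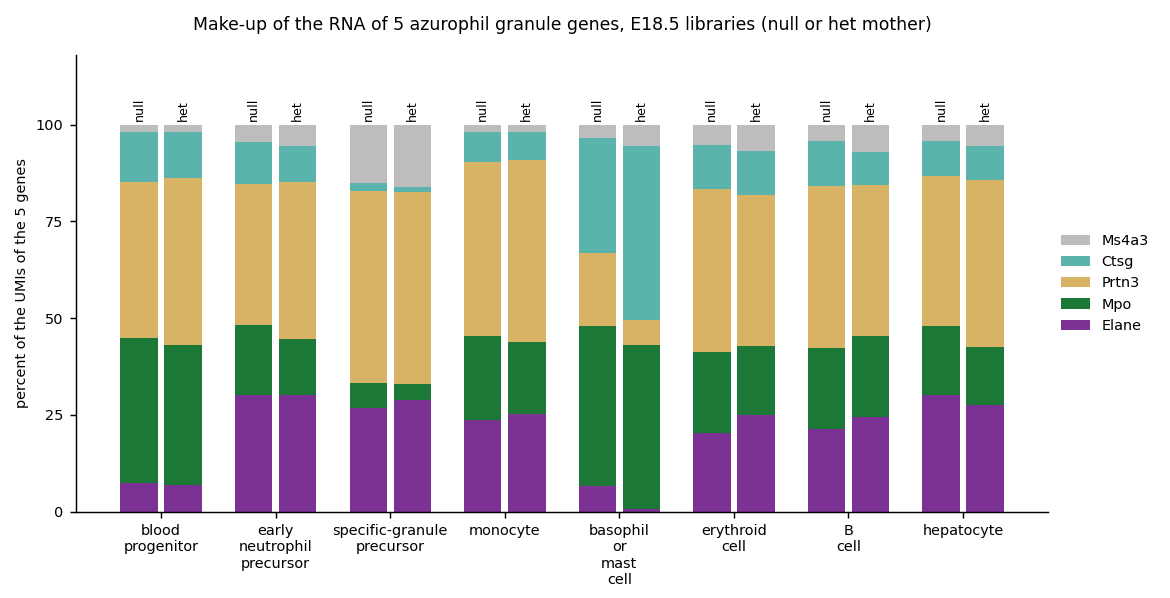
Share of each of 5 genes in their summed UMIs (percent) for 8 classes of the E18.5 libraries, with the null-mother library as the left and the heterozygous-mother library as the right bar of each pair. Mpo takes 37.4% and 36.3% in blood progenitors and 6.27% and 4.17% in specific-granule precursors, and Ctsg is largest in basophils or mast cells.

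Within early precursors, the 5 genes varied together from cell to cell. As a description over 1007 and 601 cells, which share a library and a range of depths, Pearson's r of log2 levels was 0.800 and 0.743 for Elane with Prtn3 and 0.808 and 0.742 for Mpo with Ctsg. Across these pairs it was lower, from 0.529 and 0.438 for Elane with Ctsg to 0.702 and 0.635 for Mpo with Prtn3 and 0.685 and 0.671 for Prtn3 with Ctsg. Camp ran against Ctsg (-0.689 and -0.714) and Mpo (-0.525 and -0.498) and hardly moved with Elane (-0.0932 and -0.0395). Ctsc had an r of at most 0.166 with any of the 5 genes in the null-mother library.

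Across the 30 clusters of the E18.5 libraries, the genes most like the mean of the 6 members among 13176 genes were F13a1 (Pearson's r 0.865), Cst7 (0.861), Prss57 (0.855), Lrmda (0.828), Tmed3 (0.822), Plppr3 (0.822), Mgl2 (0.817) and Gria3 (0.800). The clusters share libraries, and these values are a description. Ctsc itself had an r of only 0.520 with that mean, against 0.930 to 0.979 for the other 5. Each member is part of that mean, which raises these values. With the mean of the 5 other genes, which leaves Ctsc out, Ctsc had an r of 0.362, so the set is not one pattern. With the 5 other genes as the target, Prss57 (0.880), the gene of a further azurophil serine protease, came first, and Alas1 (0.811), the first enzyme of haem synthesis, was among the 8. Genes most like Ctsc were Rassf4 (0.900), Tor3a (0.896) and Ctss (0.896), the gene of cathepsin S. Plppr3 overlaps Prtn3 on the opposite strand, and the strand setting of the counting is not given in the sources used here. Reads of the 2 genes cannot be told apart without it, which makes the likeness of Plppr3 uncertain (634 and 323 UMIs in early precursors, against 161973 and 86270 for Prtn3). The same limit holds for Mpo, which overlaps Gm11505 (31 and 33 UMIs in early precursors), and for Ctsc, which overlaps Gm26522 (66 and 42, against 409 and 260 for Ctsc).

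Between the mothers, no member differed by 1.5-fold in early precursors. Mpo was 1.49-fold higher with a null mother (interval 1.47 to 1.51), Ctsg 1.38-fold (1.36 to 1.40) and Elane 1.197-fold (1.185 to 1.208). Prtn3 (1.06-fold), Ms4a3 (1.00-fold, 0.981 to 1.03) and Ctsc (0.892-fold, 0.762 to 1.05) lay near 1. Of the 8200 genes with at least 50 UMIs in this class, 4.00% were at least 1.5-fold higher and 0.720% at least 1.5-fold lower, and the median fold was 1.06. The count of members past 1.5-fold was 0 of 6, but Mpo sat at the limit and was past it with the finer clustering (1.52) and as a mean over cells (1.505). The summed 6 genes were 1.19-fold higher (1.185 to 1.197). The larger fold of Mpo and Ctsg was also seen in the low-Camp cells, with 1.503 for Mpo and 1.31 for Ctsg, and in the high-Camp cells, with 1.29 and 1.48.

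In monocytes 1 of 6 members was past 1.5-fold, where 2.78% of 7912 genes were at least 1.5-fold higher and 2.00% at least 1.5-fold lower. Mpo was 1.52-fold higher with a null mother, but 1.46-fold when haemoglobin, ribosomal-protein and mitochondrial genes were left out of the total. Ms4a3 (1.41), Ctsg (1.38), Prtn3 (1.28) and Elane (1.26) were above 1 and Ctsc was at 1.04. When each cell was weighted equally, all 5 other than Ctsc passed 1.5-fold, with values from 1.51 for Elane to 1.92 for Mpo. With the finer clustering Ctsg was past it too (1.52). In the finer cluster of monocytes with high Lyz2, Ms4a3 was 2.70-fold (2.23 to 3.29) and Mpo 2.17-fold (2.06 to 2.29) higher with a null mother. Camp, a neutrophil gene, was at 2091 and 1341 CPM in the same cells, and the part of neutrophil RNA in these folds was not tested.

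In blood progenitors 0 of 6 members were past 1.5-fold, where 2.16% of 6861 genes were at least 1.5-fold higher and 1.88% at least 1.5-fold lower. Their folds ran from 1.05 for Ms4a3 to 1.27 for Ctsg. This count depended on the cells used: Elane was at 1.72 and Ctsg at 1.51 with the finer clustering, Elane at 1.68 and Ctsg at 1.58 without the deepest cells of each library (over its 95th UMI percentile), and Elane at 1.96 among male cells. As a mean over cells Elane was at 1.85, Ctsg at 1.99 and Ms4a3 at 1.67, and Elane was at 1.504 with the members kept in the clustering. In specific-granule precursors 2 of 6 were, namely Ctsg at 2.00-fold (1.62 to 2.48) and Mpo at 1.74-fold (1.56 to 1.95), where 2.10% of 7898 genes were at least 1.5-fold higher and 2.48% at least 1.5-fold lower. Of the 5 genes other than Ctsc, these lay closest to the erythroid level, which was itself higher with a null mother, and the part of free RNA in these folds was not tested. Among male cells only, Ctsg was at 0.689-fold (0.452 to 1.03), Mpo at 1.26-fold and Ctsc at 1.59-fold.

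In macrophages Mpo (1.76), Ctsg (1.75) and Prtn3 (1.70) were past 1.5-fold, 3 of 6 members, where 10.0% of 4883 genes were at least 1.5-fold higher and 6.31% at least 1.5-fold lower. These folds rested on few cells, since 25 of 610 and 4 of 392 macrophages held 94.5% and 93.4% of the class's UMIs of the 5 genes. Of those cells 68.0% and 50.0% were called doublets, against 9.74% and 8.25% of the other macrophages. Their size and even their direction changed with the cells used. Among male cells Mpo was at 0.804-fold, Prtn3 at 0.834-fold and Ctsg at 0.497-fold, and without called doublets they were at 1.204, 1.205 and 1.36. Without the deepest cells the 5 genes ran from 4.34-fold for Ms4a3 to 9.52-fold for Elane, and with the finer clustering from 1.73-fold for Ms4a3 to 3.60-fold for Mpo. All 5 were also past 1.5-fold as a mean over cells, with TMM factors and with the total free of haemoglobin, ribosomal-protein and mitochondrial genes. Ctsc, which macrophages carried in 84.4% and 70.2% of cells, was lower with a null mother, at 0.837-fold (0.780 to 0.899).

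Over all myeloid cells together, the summed 6 genes were 1.504-fold higher with a null mother (1.497 to 1.511). Mpo (1.88), Ctsg (1.77) and Elane (1.51) were past 1.5-fold, 3 of 6 members, where 8.17% of 10630 genes were at least 1.5-fold higher and 2.23% at least 1.5-fold lower. Elane fell under 1.5-fold with TMM factors (1.43), male cells only (1.46) and the finer clustering (1.48). Within early precursors the sum differed by 1.19-fold, and early precursors made up 20.5% and 12.3% of the myeloid cells. The larger fold over all myeloid cells thus stood beside a larger share of early precursors in the null-mother library. With only 1 library each, cell shares and sampling of the tissue cannot be told apart.

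**Figure D4:**
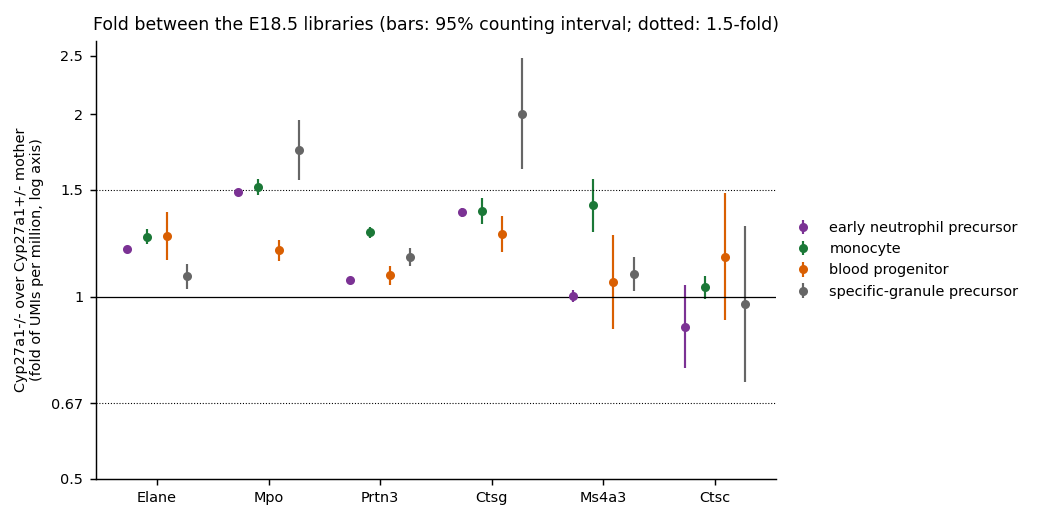
Fold of CPM between the E18.5 libraries (null mother over heterozygous mother, log axis) for each gene in 4 classes, with 95% counting intervals as bars; the solid line marks 1 and the dotted lines 1.5-fold either way. In early neutrophil precursors Mpo is at 1.49 and Ms4a3 at 1.00, and in specific-granule precursors Ctsg is at 2.00.

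Other genes of the granule pathway differed little between the mothers in early precursors. Of 20 listed genes of azurophil contents and membrane, 16 had at least 50 UMIs, none was past 1.5-fold, all 16 were above 1 and their median fold was 1.16, against 1.06 over all 8200 genes. They included Gaa (1.40) and Gusb (1.39), which encode lysosomal glycosidases, Man2b1 (1.32), a lysosomal mannosidase gene, and Srgn (2123 and 1871 CPM), whose proteoglycan serglycin packs granule proteins. Of 15 regulators of granulocyte genes, none was past 1.5-fold and the median was 1.08. Gfi1, a repressor needed for neutrophil development, was at 1.34 (86.1 and 64.0 CPM), Csf2ra, a receptor subunit for GM-CSF, at 1.24, and Etv6, a repressor of the ETS family, at 0.821. Cebpe, the C/EBP factor of granule maturation, had the highest level of that list (553 and 510).

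Of 15 genes of congenital neutropenia and granule sorting, Hax1 was past 1.5-fold (1.52, interval 1.27 to 1.83; 35.2 and 23.2 CPM) and the median was 1.11. Hax1 encodes a mitochondrial protein whose loss causes congenital neutropenia in humans. The sorting adaptor subunit gene Ap3s1 was at 1.05, and Lamtor2, a gene of late endosomes, had the highest level (481 and 486). Of 8 genes of haem synthesis, none was past 1.5-fold and the median was 1.07. Ppox was at 1.16 and Alas1 at 1.01 (308 and 305 CPM), so the Mpo difference stood beside nearly equal RNA of the haem-making enzymes.

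Of 16 listed inhibitors of granule proteases, 12 were measured, 3 were past 1.5-fold and the median was 1.04. The 3 were Serpina1a (2.67), Serpina1b (2.43) and Serpina1c (2.17), near-identical antitrypsin genes of hepatocytes whose reads can be split between copies. Their levels were low, at 2.53 to 13.9 CPM, and Alb in the same cells was at 164 and 61.9, so that hepatocyte RNA moved with them; its part was not tested. Stfa1, a stefin gene, had the highest level (13330 and 14353), and Serpinb1a, an inhibitor of elastase and proteinase 3 inside the cell, was at 1.02 (1441 and 1412). Of 12 later granule genes, 11 were measured, 1 was past 1.5-fold lower and the median was 0.959. That gene was Retnlg at 0.548 (59.0 and 108 CPM), followed by Chil3 at 0.685, and Ltf, the lactoferrin gene, was at 1.37. S100a9 had the highest level (37631 and 39922). Of 10 cell cycle genes none was past 1.5-fold and the median was 1.09, with Ccnb1 highest at 1.45.

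The RNA of the 5 genes was also found in cells of other lineages, where free RNA in the droplets and doublets both give UMIs. In erythroid cells each gene was at 0.167% to 0.286% of its level in early precursors with a null mother and at 0.111% to 0.168% with a heterozygous mother. In B cells it was at 0.256% to 0.415% and 0.131% to 0.233%. The level of the 5 genes summed was 87.6 and 39.7 CPM in erythroid cells and 128 and 48.0 in B cells. These classes thus carried a low and similar level next to the 5115 and 3087 over all cells, and it was higher in the null-mother library. At a depth of 1000 UMIs per cell, 11.8% and 4.97% of erythroid cells and 12.95% and 7.12% of B cells had a UMI of the 5 genes, with 376 and 482 shallower erythroid cells and 234 and 168 shallower B cells left out.

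Hepatocytes and endothelium carried more, but in few cells. The 5 genes summed were at 899 and 338 CPM in hepatocytes and at 1098 and 1103 in endothelium. A UMI of the 5 genes was found in 43.8% (42.0 to 45.7) of hepatocytes with a null mother and 26.0% (23.1 to 29.0) with a heterozygous mother, at median depths of 6121 and 4368. Thinned to 1000 UMIs the shares were 13.5% and 5.88%, near those of erythroid and B cells, with 176 and 134 shallower cells left out. Hepatocytes with 10 or more UMIs of the 5 genes, a limit set after the values were seen, numbered 95 of 2687 and 8 of 882. They held 92.2% and 85.7% of the hepatocyte UMIs of the 5 genes. Of these cells 70.5% and 37.5% were called doublets, against 7.95% and 3.66% of the other hepatocytes. In endothelium 12 of 563 and 11 of 650 cells held 92.2% and 94.9%, and 91.7% and 81.8% of those were called doublets.

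Without the cells of 10 or more UMIs the 5 genes were at 75.8 and 49.5 CPM in hepatocytes and 91.8 and 60.6 in endothelium, close to the 81.5 and 38.8 in erythroid cells. The step removes cells by the 5 genes themselves and lowers them by construction. The make-up in the cells left was not quite that of early precursors: Prtn3 was 53.5% (51.0 to 55.9) and 48.5% (42.5 to 54.6) of the UMIs of the 5 genes in hepatocytes, against 36.4% and 40.7% in early precursors. In erythroid cells left by the same step it was 42.7% (40.1 to 45.3) and 39.1% (36.2 to 41.9).

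The later granule genes were found in the same classes. S100a8, which encodes a subunit of calprotectin, was at 4.17% and 2.86% of its level in specific-granule precursors in hepatocytes and at 6.01% and 5.76% in endothelium. Elane was at 2.54% and 1.05% of its level in early precursors in hepatocytes and at 3.25% and 3.98% in endothelium. In erythroid cells S100a8 was at 0.361% and 0.289% and Elane at 0.167% and 0.111%. Both genes thus stood at a higher percent in hepatocytes and endothelium than in erythroid cells. Without the cells of 10 or more UMIs S100a8 was at 3.18% and 2.57% in hepatocytes and Elane at 0.124% and 0.109%, but that step uses Elane and not S100a8, so the drop of Elane follows from it. The source of this RNA was not tested.

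**Figure D5:**
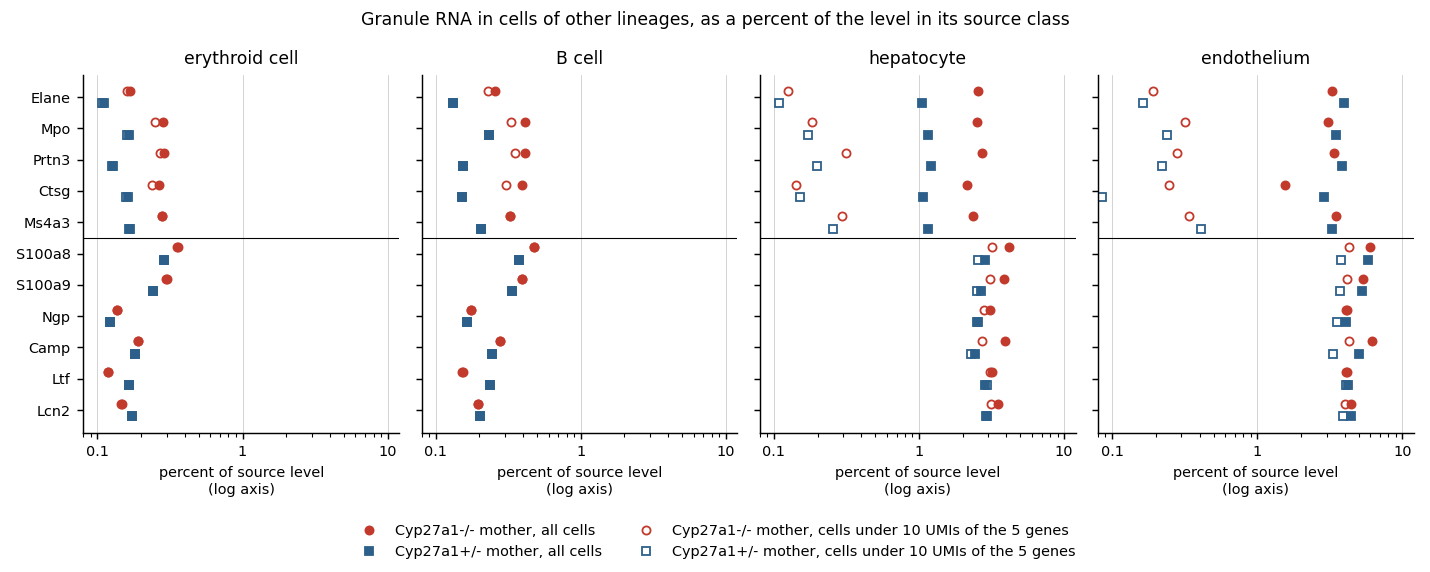
Level of 5 azurophil granule genes and 6 later granule genes in erythroid cells, B cells, hepatocytes and endothelium of the E18.5 libraries, as a percent of the gene's level in its source class (early neutrophil precursors above the line, specific-granule precursors under it; log axis). Filled marks are all cells and open marks cells with under 10 UMIs of the 5 genes; in hepatocytes Elane is at 2.54% and 1.05% over all cells and 0.124% and 0.109% in the others, a drop that leaving out cells by the 5 genes fixes in part.

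Ctsc varied more between those classes. B cells held it at 34.7 and 37.6 CPM, level between the libraries although the 5 other genes were not, and endothelium at 32.9 and 26.5. Erythroid cells had 3.48 and 2.95 and hepatocytes 13.4 and 9.89. The level in B cells was thus about that of early precursors and above that of erythroid cells.

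At E14.5 the neutrophil genes were nearly absent. Elane had 0 UMIs with a null mother, which at a floor of 3 UMIs allows up to 0.0563 CPM, and 3 with a heterozygous mother, in 2 cells. Mpo had 9 and 16 UMIs, Ctsg 4 and 6 and Ms4a3 0 and 3. Over all cells at E18.5 Elane alone had 173310 and 85096 UMIs. No early neutrophil precursor cluster was found at E14.5. One myeloid cluster was led by Lyz2, C1qb, C1qa and C1qc and tied between macrophage and monocyte markers (136 and 85 cells). It carried Ctsc at 966 (924 to 1009) and 705 (652 to 761) CPM, in 75.7% and 58.8% of its cells, while Elane had at most 2 UMIs there.

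Ctsc was thus the only one of the 6 with a clear level at E14.5, at 63.7 and 35.2 CPM over all cells, 1.81-fold higher with a null mother (1.71 to 1.92). The same gene was at 48.2 and 53.6 in lung epithelium, found in 50.6% and 48.9% of those cells, and at 29.3 and 25.1 in endothelium. Over all cells at E18.5 it stood at 81.1 and 63.9. The myeloid cluster was 2.81% of the cells with a null mother and 1.71% with a heterozygous mother at E14.5, and without blood cells the 6 genes summed were at 30.2 and 25.5 CPM in place of 66.6 and 39.0. Gm26522, on the strand opposite Ctsc, had 432 and 247 UMIs at E14.5, against 3393 and 1654 for Ctsc. Reads of this pair cannot be told apart without the counting strand.

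Prtn3 had 146 and 153 UMIs at E14.5, more than the other neutrophil genes. Its level was highest in the myeloid cluster, at 11.8 and 30.03 CPM (25 and 28 UMIs, in 15 and 7 cells), but most of its UMIs lay in other cells. With a heterozygous mother, 1 of the 85 cells of that cluster held 47.1% of its UMIs of the 5 genes other than Ctsc. Lung epithelium had Prtn3 in 5.18% and 7.14% of cells (2.74 and 3.79 CPM) and mesenchyme in 4.22% and 4.16%, whereas erythroid cells of those libraries had 0 UMIs in 308 and 155 cells. Plppr3, the gene on the opposite strand, had 547 and 554 UMIs there and was found in 22.5% and 19.8% of cells with a Prtn3 UMI, against 9.57% and 9.20% of the others. These shares pool classes of unlike depth. Within mesenchyme they were 26.0% and 23.2%, against 18.3% and 20.5% of the others. The gap was wider within lung epithelium, at 30% and 25.9% of only 30 and 27 cells with Prtn3, against 16.2% and 15.95%. In the myeloid cluster Plppr3 had only 5 and 2 UMIs. Since the counting strand is not given in the sources used here, these UMIs cannot be assigned to Prtn3 with certainty. At E18.5 Prtn3 had 227543 and 126007 UMIs, against 1176 and 731 for Plppr3, so the overlap could touch little of its level there.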

How the data were processed

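The authors deposited 1 matrix of UMI counts per gene and cell for all 4 libraries, a table that gives each cell's library, and lists of cell and gene names, made with Cell Ranger 3.0.0 on mm10, with Seurat 4.3.0 also named, per the submitters' processing notes. The deposited counts were raw and had at least 500 UMIs in every cell. Each age was clustered on its own with scanpy 1.11.5 (2000 variable genes without the 6 members, 30 components, 20 neighbours, Leiden resolution 1). A marker counted where 10% or more of a cluster's cells had it and its level was 4 times the lower quartile over clusters, and a name needed 3 such markers. Clusters with over 50% doublets (Scrublet) or a median of over 20% mitochondrial UMIs were left unnamed; at E14.5 the caller marked too few cells to judge doublets. Counts were summed per library and class, and a fold needed 50 UMIs in the library with the higher level. Where a class held unequal UMIs in the libraries, genes higher in the library with more passed this limit at a lower level. The shares of genes higher and lower are then not on equal terms. Likeness used log2(CPM + 10), with CPM the UMIs per 1000000 UMIs. All 6 members are named; other genes follow the 8 highest likeness values and the extreme and highest members of each list. The members and lists were chosen with earlier results of these data known. Alternatives changed the total, TMM factors (edgeR 4.0.16), doublets, deep cells, cell weights, sex and clustering. The summing and intervals were tested on simulated data.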

Additional observations from a re-analysis of the deposited data

How the results depend on the processing

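The summed 6 genes in early precursors (1.19-fold) were at 1.15 with the total free of haemoglobin, ribosomal-protein and mitochondrial genes, 1.16 with TMM factors, 1.17 without each library's deepest cells (over its 95th UMI percentile), 1.23 as a mean over cells and 1.21 with the members kept in the clustering. Over all myeloid cells (1.504-fold) they were at 1.54, 1.42, 1.59, 1.95 and 1.49 under those settings, and at 1.52 without called doublets, 1.46 with male cells only and 1.46 at Leiden resolution 2. The share of the 5 genes' UMIs in early precursors (73.8% and 70.1%) was 80.2% and 72.7% without doublets, 66.7% and 63.9% at resolution 2 and 80.6% and 77.9% with the members kept. Hepatocytes with a UMI (43.8% and 26.0%) were 13.5% and 5.88% when thinned; with a null mother they were 41.8% without doublets and 41.8% without the cells of 10 or more UMIs, a setting chosen after seeing the data. At E14.5 the level of the 6 genes was 30.2 and 25.5 without blood cells. With male cells only, 4 folds of single members past 1.5 changed direction: Ctsg in specific-granule precursors (0.689) and Mpo (0.804), Prtn3 (0.834) and Ctsg (0.497) in macrophages. Of 418 alternative values, 259 moved by less than their interval and 155 by more. These were values of single members, and of the summed 6 genes in classes other than early precursors and all myeloid cells. In early precursors Ms4a3 ranged from 0.969 to 1.02 and Ctsc from 0.807 to 1.06. No paired analysis was possible because each group had 1 library. The depth limits E14.5, where Elane and Ms4a3 had 0 to 3 UMIs, and mature neutrophils, with under 50 UMIs of each member.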
